A study of Mus musculus with 6 samples.

Results

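The genes described here are 8 effectors and feedback targets of canonical Wnt signalling, Ctnnb1, Tcf7l1, Tcf7l2, Lef1, Znrf3, Apcdd1, Axin2 and Nkd1, chosen by name out of 18743 genes with an expected count above 0 in any library. Transcript values were joined to mouse symbols through the gene identifiers in the files and summed per gene, and a gene missing from a library's table was set to 0. The study exposed primary mouse oligodendrocyte progenitor cells (OPCs), the dividing precursors of myelinating oligodendrocytes, to hemin, the oxidised form of heme, in work on ferroptosis after bleeding in the brain. The hemin group had 3 libraries from cells given 50 µM hemin for 12 h, and the vehicle group had 3 libraries from cells given 0.25% DMSO for the same time. Whether the hemin cells received DMSO as well is not stated. All 6 came from wild type C57BL/6 pups labelled as postnatal day 1, whose cortical cells were enriched on magnetic beads for CD140 (PDGFRα) and expanded for 3 days. Separate cultures or litters are not stated for the libraries of a group, and the spread behind each p-value may therefore be technical.

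In canonical Wnt signalling, a Wnt protein bound to a Frizzled receptor and its LRP co-receptor stops a cytoplasmic complex from marking β-catenin for destruction. β-catenin then enters the nucleus and joins factors of the TCF/LEF family at target genes, several of which encode inhibitors that damp the pathway again. In the oligodendrocyte lineage the pathway is known for its influence on the timing of differentiation, and Tcf7l2 is known as a factor of the transition to the differentiating oligodendrocyte.

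The sequences below belong to the pair of TCF factors whose values moved in opposite directions, and are shown so that the transcripts counted and the starts of both genes can be recognised. The first is a 42-nt coding exon on the minus strand of chr6:72648801-72648842 (GRCm38, GENCODE) that 1 of the 2 listed Tcf7l1 transcripts, NM_001079822, carries and NM_009332 lacks. The second is a 73-nt coding exon on the plus strand of chr19:55925977-55926049 (GRCm38, GENCODE) that separates the listed Tcf7l2 transcripts NM_001142922 and NM_001142924 from the other 4. Its capitals mark the codons of the core of the C-clamp, an additional DNA-contacting element known from TCF proteins. Both are written 5′ to 3′ on the gene's own strand.
Tcf7l1 exon: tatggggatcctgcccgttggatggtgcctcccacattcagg
Tcf7l2 exon: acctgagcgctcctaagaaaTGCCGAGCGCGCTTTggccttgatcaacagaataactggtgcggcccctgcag

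The promoter windows of both genes are RefSeq's for GRCm38.p6, from 250 bases before to 50 bases after a start, on the minus strand of chr6:72788996-72789295 for Tcf7l1 and the plus strand of chr19:55741560-55741859 for Tcf7l2. Capitals mark the TCF/LEF core, searched on both strands as CTTTGA and CTTTGT. The Tcf7l1 window held 1 core, which began 28 bases before the start, and this Tcf7l2 window held none. RefSeq's table had windows for 6 of the 8 genes. Among their 11 windows 3 held a core, those of Tcf7l1 and of inner starts of Lef1 and Tcf7l2, against 31.2% of all 32851 windows, and the windows of Axin2, Nkd1 and Ctnnb1 held none. A match is a stretch of letters and not a binding site.
Tcf7l1 promoter: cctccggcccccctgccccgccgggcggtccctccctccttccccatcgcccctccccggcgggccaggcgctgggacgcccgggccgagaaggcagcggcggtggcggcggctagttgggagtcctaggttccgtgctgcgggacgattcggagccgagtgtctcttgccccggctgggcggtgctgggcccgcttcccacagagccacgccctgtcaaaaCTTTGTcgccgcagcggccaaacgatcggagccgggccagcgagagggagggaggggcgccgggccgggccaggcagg
Tcf7l2 promoter: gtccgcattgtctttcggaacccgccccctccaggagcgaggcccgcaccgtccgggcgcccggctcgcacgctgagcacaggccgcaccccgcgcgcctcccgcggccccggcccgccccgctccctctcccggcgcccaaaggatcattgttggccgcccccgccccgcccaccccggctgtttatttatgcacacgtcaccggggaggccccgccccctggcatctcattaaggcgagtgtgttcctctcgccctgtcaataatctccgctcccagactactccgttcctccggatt

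Of the 7 genes that could be tested, Znrf3, Apcdd1 and Tcf7l1 were lower with hemin, Tcf7l2 was higher, and Axin2, Nkd1 and Ctnnb1 did not pass the test. Lef1 did not pass the filter on low counts and was not tested. The test was edgeR's quasi-likelihood test on expected counts, fitted across all 12779 genes that passed the filter, with Benjamini-Hochberg adjustment over all of them and a threshold of 0.05 on the adjusted p. In that fit 31.9% of the genes tested passed, 16.2% higher and 15.7% lower with hemin. The median log2 fold change of the 7 genes was -0.04, against 0.0022 for all genes tested. With libraries scaled by their totals alone, the calls over all genes split into 1715 higher and 2582 lower, against 2072 and 2005 with edgeR's scaling factors. Expected counts over annotated genes summed to 6463460 to 6523639 in the hemin libraries and 6339966 to 6390691 in the vehicle libraries. Libraries of one group differed by more than counting noise, so none was treated as a duplicate.

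**Figure D1:**
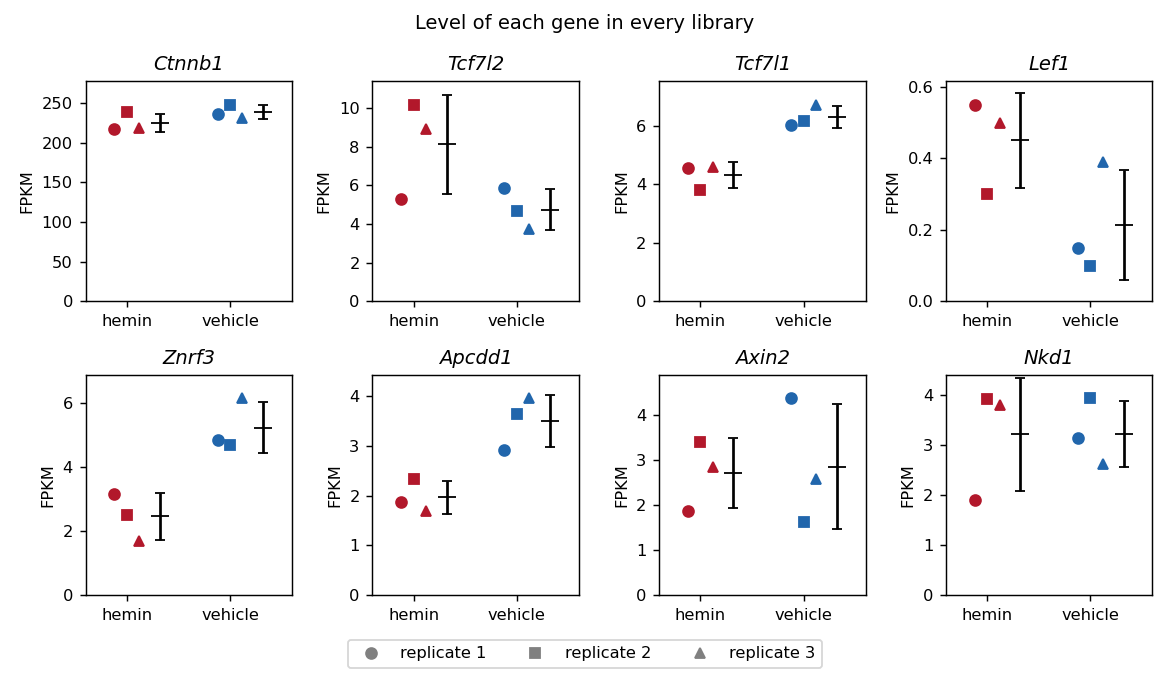
FPKM of each of the 8 genes (y axis, from 0) in the 3 hemin libraries (red) and the 3 vehicle libraries (blue), with marker shapes for the replicate number and the black bar for the mean ± SD of each group. The hemin libraries lie entirely below the vehicle libraries for Tcf7l1, Znrf3 and Apcdd1, and the groups overlap for the other 5 genes.

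The level of the genes, in FPKM, which is scaled by transcript length and library size, spanned a wide range in both groups. Ctnnb1 stood far above the rest at 224 ± 11.7 FPKM in hemin libraries and 238 ± 8.80 FPKM in vehicle libraries (SD, n = 3 per group). Lef1 was the lowest at 0.450 ± 0.132 FPKM with hemin and 0.213 ± 0.155 FPKM with vehicle. In hemin libraries Tcf7l2 came after Ctnnb1, without overlap with Tcf7l1, and then followed Tcf7l1, Nkd1, Axin2, Znrf3 and Apcdd1, each overlapping the next. In vehicle libraries Tcf7l1 came after Ctnnb1, and then followed Znrf3, Tcf7l2, Apcdd1, Nkd1 and Axin2, again each overlapping the next. The levels of Ctnnb1 and Lef1 were thus the 2 that stood apart from every other gene in both groups.

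Ctnnb1 (gene identifier 12387 in the files), β-catenin itself, the coactivator of TCF/LEF factors and a component of cell junctions, had 217, 238 and 218 FPKM in hemin replicates 1 to 3 and 236, 248 and 230 FPKM in vehicle replicates 1 to 3. The groups overlapped, since hemin replicate 2 lay above vehicle replicates 1 and 3. The log2 fold change was -0.04 ± 0.08 (SE), with a 95% interval from -0.23 to 0.15 (edgeR adjusted p = 0.736). With 6903 to 8061 expected counts per library this was the most precisely measured of the 8 genes. The annotation places Ulk4 on the opposite strand over part of Ctnnb1. The labels do not say whether strand was recorded, and Ulk4 was at most 0.77 FPKM in any library. Gm15401, on the strand opposite to Tcf7l1, was at most 0.11 FPKM.

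Tcf7l1 (21415), a TCF factor known mainly as a repressor of Wnt targets, had 4.55, 3.80 and 4.59 FPKM in hemin libraries, against 6.02, 6.18 and 6.73 FPKM in vehicle libraries. Every hemin library lay below every vehicle library, and the same held for Znrf3 and Apcdd1. Across all genes tested, the groups failed to overlap in one direction or the other for 49.1%. Tcf7l1 fell 1.41-fold (log2 fold change -0.50 ± 0.16, edgeR adjusted p = 0.0439). The call was lost without hemin replicate 2 or 3 or any 1 of the 3 vehicle replicates (edgeR adjusted p from 0.0728 to 0.128), with the same sign each time. It was not kept with the replicate number as a block either (edgeR adjusted p = 0.0697).

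Tcf7l2 (21416), the TCF factor of the differentiating oligodendrocyte, had 5.27, 10.2 and 8.92 FPKM in hemin libraries, against 5.84, 4.65 and 3.72 FPKM in vehicle libraries. Hemin replicates 2 and 3 stood above every vehicle library, whereas hemin replicate 1 lay below vehicle replicate 1. Tcf7l2 rose 1.77-fold (log2 fold change 0.83 ± 0.26, edgeR adjusted p = 0.0451). Among the 8 genes this was the call nearest to the threshold. It was lost with libraries scaled by their totals (edgeR adjusted p = 0.0678) and in limma on FPKM (adjusted p = 0.0734). It was also lost without hemin replicate 2 or 3 or any 1 of the 3 vehicle replicates (edgeR adjusted p from 0.0535 to 0.14). Nor was it kept with the replicate number as a block (edgeR adjusted p = 0.0924). Without hemin replicate 1 the log2 fold change was 1.04 (edgeR adjusted p = 0.0103).

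Lef1 (16842), the TCF/LEF factor that is itself a Wnt target in many tissues, had 16, 8 and 16 expected counts in hemin libraries and 4, 2 and 8 in vehicle libraries. Hemin replicate 2 and vehicle replicate 3 were level at 8 counts, so the groups touched. Without the filter on low counts, edgeR gave a log2 fold change of 1.51 (adjusted p = 0.0851). Lef1 passed the threshold in 1 alternative, the fit without vehicle replicate 3, its highest vehicle library (log2 fold change 2.18, edgeR adjusted p = 0.0384). In that fit it met the count filter only through hemin replicates 1 and 3, so this p-value is no support for a change. With all 6 libraries Lef1 passed in none of the fits that tested it.

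**Figure D2:**
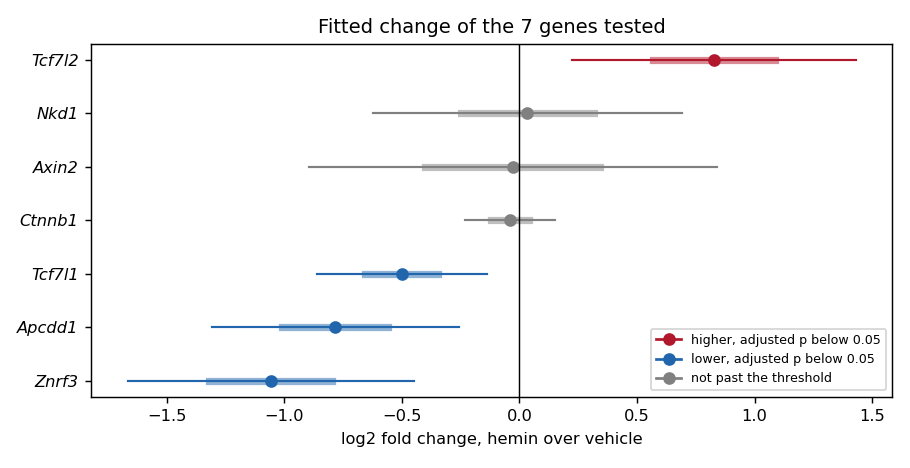
Log2 fold change of hemin over vehicle (x axis) for the 7 genes tested, with the point for the edgeR estimate, the thick bar for ± 1 SE and the thin bar for the 95% interval. Tcf7l2 lies at 0.83, Tcf7l1, Apcdd1 and Znrf3 lie at -0.50, -0.78 and -1.06, and the intervals of Nkd1, Axin2 and Ctnnb1 span 0.

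Among the feedback inhibitors, Znrf3 and Apcdd1, which act at the cell surface, were lower with hemin. Axin2 and Nkd1, which act inside the cell, did not pass. A difference between the 2 pairs was not tested. Znrf3 (407821), a membrane ubiquitin ligase that removes Frizzled receptors, had 3.17, 2.51 and 1.70 FPKM in hemin libraries, against 4.84, 4.70 and 6.15 FPKM in vehicle libraries. All hemin libraries lay below all vehicle libraries. Znrf3 fell 2.08-fold (log2 fold change -1.06 ± 0.26, edgeR adjusted p = 0.0194), the greatest change of the 7 genes. The call was lost without hemin replicate 2 (edgeR adjusted p = 0.062) and without vehicle replicate 3 (0.0604).

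Apcdd1 (494504), a membrane glycoprotein that binds Wnt proteins and LRP co-receptors and inhibits the pathway, had 1.88, 2.33 and 1.69 FPKM in hemin libraries, against 2.93, 3.64 and 3.96 FPKM in vehicle libraries. The groups did not overlap. Apcdd1 fell 1.72-fold (log2 fold change -0.78 ± 0.22, edgeR adjusted p = 0.0336). The counts behind it were low, 41 to 57 in hemin libraries and 72 to 99 in vehicle libraries. The call was lost without hemin replicate 1 or 3 or any 1 of the 3 vehicle replicates (edgeR adjusted p from 0.0517 to 0.109). It was not kept with the replicate number as a block either (edgeR adjusted p = 0.0568).

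Axin2 (12006), a scaffold of the destruction complex and the most widely used transcriptional readout of the pathway, had 1.86, 3.40 and 2.84 FPKM in hemin libraries and 4.36, 1.61 and 2.58 FPKM in vehicle libraries. Its lowest and its highest library were both vehicle libraries, so the hemin values lay inside the vehicle range. The log2 fold change was -0.03 ± 0.37, with a 95% interval from -0.90 to 0.84 (edgeR adjusted p = 0.963). A wide range of changes in either direction thus lies inside the interval. The expected counts of its 1 listed transcript, 62.2 to 167 per library, were fractional, unlike those of Apcdd1 and Nkd1. Whether its reads were shared with other features was not determined. Without vehicle replicate 1 the estimate was 0.42 and without vehicle replicate 2 it was -0.30, and neither passed (edgeR adjusted p = 0.415 and 0.556).

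Nkd1 (93960), which binds Dishevelled and blocks the signal behind the receptor, had 1.91, 3.92 and 3.80 FPKM in hemin libraries and 3.13, 3.93 and 2.62 FPKM in vehicle libraries. The groups overlapped fully apart from hemin replicate 1, which was below every vehicle library. The log2 fold change was 0.03 ± 0.28, with a 95% interval from -0.62 to 0.69 (edgeR adjusted p = 0.941). Leaving out 1 library moved the estimate between -0.14, without hemin replicate 2, and 0.28, without hemin replicate 1, and it passed in neither fit (edgeR adjusted p = 0.789 and 0.315). Within the hemin group, replicate 1 had the lowest FPKM for Tcf7l2, Axin2, Nkd1 and, narrowly, Ctnnb1, and the highest for Znrf3 and Lef1.

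The genes whose profile over the 6 libraries was most like that of Axin2 were Tmem107, F2rl1 and Tomt, none of which passed the test. Likeness was the root mean square distance between log2(FPKM + 1) profiles, each centred on its own mean, and was 0.138, 0.152 and 0.161 for the 3 genes among 11452 genes compared. Over 6 libraries such a likeness is a description only.

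The transcript tables show which forms of Znrf3, Tcf7l1, Tcf7l2 and Ctnnb1 carried these values, as estimates that divide shared reads between forms. How often counts of single forms fail to overlap between the groups was not determined over all transcripts. Over all genes tested, the groups failed to overlap in FPKM for 49.1%. For Znrf3, the form NM_001290501, whose annotated first exon lies inside the gene and whose coding sequence is 2427 nt, had 183, 111 and 72.0 expected counts in hemin libraries, against 281, 289 and 371 in vehicle libraries. The form from the outer start, NM_001080924, with a coding sequence of 2739 nt, had 24.5, 45.9 and 32.6 in hemin libraries and 30.7, 17.7 and 32.5 in vehicle libraries. Thus the counts of the inner form did not overlap between the groups and those of the outer form did. The share of the outer form was 24.1 ± 10.7% with hemin and 7.89 ± 2.06% with vehicle (SD, n = 3 per group, exact two-sided permutation p = 0.1, the smallest that 3 against 3 libraries can give).

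For Tcf7l1, the form with the 42-nt exon printed above had 43.2, 38.8 and 37.6 expected counts in hemin libraries, against 55.5, 96.9 and 82.7 in vehicle libraries. The form without it had 72.8, 56.2 and 76.4 in hemin libraries and 95.5, 60.2 and 89.3 in vehicle libraries. Only the counts of the form with the exon separated the groups, but its share did not. That share was 37.0 ± 3.95% with hemin and 48.8 ± 12.5% with vehicle (SD, n = 3 per group, exact two-sided permutation p = 0.3).

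For Tcf7l2, 6 transcripts were listed in at least 1 library and their estimates varied widely within groups. The transcripts with the 73-nt C-clamp exon summed to 71.5, 225 and 262 expected counts in hemin libraries and 137, 7.9 and 114 in vehicle libraries. Those without it summed to 124, 143 and 62.1 in hemin libraries and 76.7, 163 and 23.4 in vehicle libraries. In vehicle replicate 2 nearly the whole gene was assigned to NM_009333, at 95.3% of its counts, against 10.7% and 17.1% in vehicle replicates 1 and 3. NM_001142921, a form without the exon, had 19.8, 38.3 and 20.5 counts in hemin libraries, against 1.67, 0 and 0 in vehicle libraries, the single Tcf7l2 form whose counts did not overlap between the groups. The share of NM_001142922, which has the longest coding sequence at 1794 nt, was 57.7 ± 22.2% with hemin and 47.6 ± 37.5% with vehicle (SD, n = 3 per group, exact two-sided permutation p = 0.8). The short form NM_001142924, which starts inside the gene and lacks the first coding exons, where TCF factors bind β-catenin, had 20.5 counts in hemin replicate 2, 12.1 in vehicle replicate 3 and 0 elsewhere.

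For Ctnnb1, both forms have the same coding length of 2343 nt in the annotation. The major form, NM_007614, had 6629, 6307 and 5722 expected counts in hemin libraries, against 6945, 7729 and 7137 in vehicle libraries. These unscaled counts separated the groups, and those of the whole gene did not. In FPKM this form separated the groups as well, at 201, 195 and 179 in hemin libraries, against 214, 237 and 217 in vehicle libraries. The separation is not kept with libraries scaled by edgeR's factors, 0.946 for hemin replicate 1 and 1.03 for vehicle replicate 1. Hemin replicate 1 then lies above vehicle replicate 1. The minor form, NM_001165902, made up 6.99%, 17.0% and 17.1% of the counts in hemin libraries and 8.83%, 4.12% and 5.52% in vehicle libraries. Hemin replicates 2 and 3 were the highest, but hemin replicate 1 lay below vehicle replicate 1 (exact two-sided permutation p = 0.2, n = 3 per group). Shares were compared for these 4 genes, and none could fall under the smallest p that 3 against 3 libraries allow. Of the few Lef1 counts, the form NM_001276403, which has another first exon and a coding sequence of 993 nt against 1191 nt, took all of the 2 and 8 counts of vehicle replicates 2 and 3. The longer form NM_010703 took all of the 16 counts of hemin replicate 3.

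**Figure D3:**
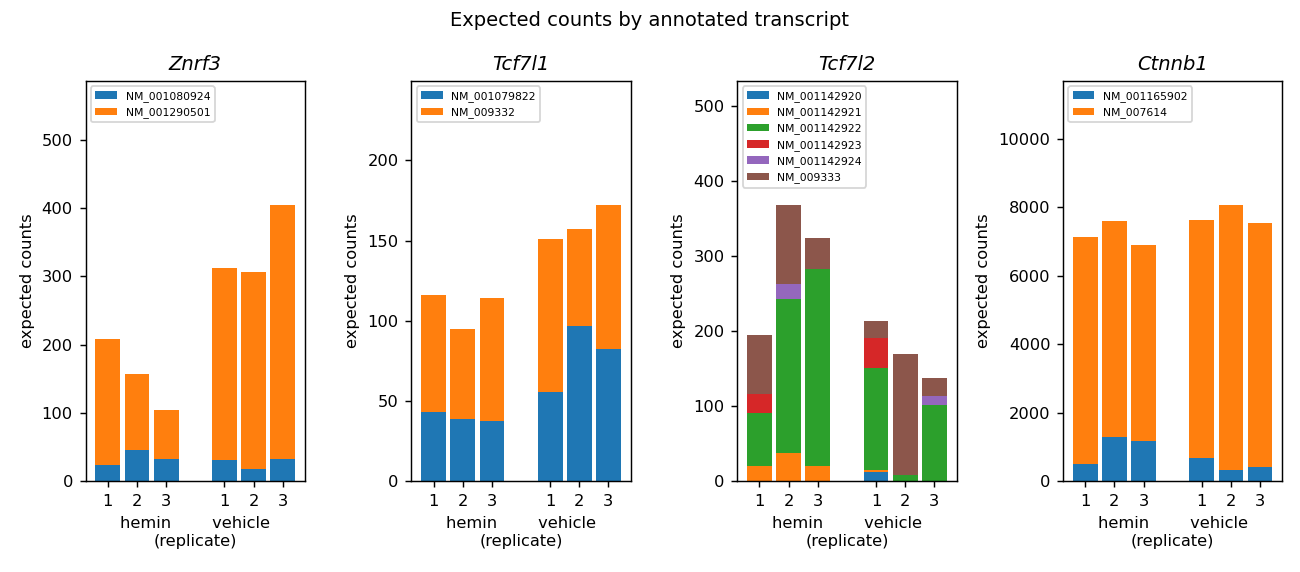
Expected counts (y axis, from 0) of each annotated transcript of Znrf3, Tcf7l1, Tcf7l2 and Ctnnb1, stacked per library, with hemin replicates 1 to 3 left of vehicle replicates 1 to 3. The height of a bar is the gene's total, and the Tcf7l2 bars differ most in their make-up, with NM_009333 taking 95.3% of vehicle replicate 2.

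The rest of the pathway was described by 116 further genes in 10 lists by role. Of these, 83 were tested, 9 were higher and 15 lower with hemin, and 59 did not pass. The share called was 28.9%, beside 31.9% of all genes tested, and the median log2 fold change was -0.04. Of the 24 called genes named below, 13 lost the call without at least 1 library. Of these 13, Wnt9a and Sfrp4 also lost it in DESeq2 (adjusted p = 0.114 and 0.0534) and Amer1 in limma without a filter on FPKM (adjusted p = 0.0663). Wnt9a and Sfrp4 met the count filter only because of their hemin libraries, with at most 10 and 9 expected counts in a vehicle library.

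Among ligands, the Wnt7 pair fell. Wnt7a (22421), which with Wnt7b is known as a ligand that OPCs and neural cells send to brain vessels, had 6.55, 5.50 and 5.37 FPKM in hemin libraries, against 13.9, 13.1 and 14.5 FPKM in vehicle libraries. It fell 2.30-fold (edgeR adjusted p = 0.00136), a call kept in every alternative tried. Wnt7b (22422), the most abundant ligand, had 11.2, 10.1 and 14.5 FPKM in hemin libraries, against 21.6, 16.4 and 22.4 FPKM in vehicle libraries, and fell 1.64-fold (edgeR adjusted p = 0.0174). The Wnt7b call was lost without hemin replicate 2 or vehicle replicate 1 or 3 (edgeR adjusted p from 0.059 to 0.0671). Wnt9a rose to 0.627 ± 0.177 FPKM in hemin libraries, against 0.257 ± 0.0666 FPKM in vehicle libraries (SD, n = 3 per group), and lost its call without hemin replicate 2 or 3 or vehicle replicate 1 or 2 (edgeR adjusted p from 0.0548 to 0.105). Of the 19 ligands 6 were tested and 3 did not pass, with a median log2 fold change of -0.72 over the 6. Neither of the 2 tested genes of Wnt acylation and release passed, among them the transporter Wls at 11.7 ± 0.821 FPKM with hemin and 9.67 ± 0.700 FPKM with vehicle (edgeR adjusted p = 0.078).

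Among 18 receptors and co-receptors, all tested, 2 rose, 2 fell and 14 did not pass, with a median log2 fold change of 0.03. Lrp6 (16974), the co-receptor that passes the signal to the Axin complex, had 18.4, 20.9 and 18.5 FPKM in hemin libraries, against 12.2, 13.0 and 11.1 FPKM in vehicle libraries (log2 fold change 0.72 ± 0.10, edgeR adjusted p = 0.00215). Fzd5, a Frizzled receptor, rose to 3.19 ± 0.200 FPKM in hemin libraries, against 1.40 ± 0.0321 FPKM in vehicle libraries (edgeR adjusted p = 0.00101). Both calls were kept in every alternative tried. The receptors Fzd9 and Fzd2 fell 2.23-fold and 1.56-fold. The Fzd9 call was lost without hemin replicate 2 or 3 or vehicle replicate 1 or 2 (edgeR adjusted p from 0.0754 to 0.12), and the Fzd2 call without each of these or vehicle replicate 3 (0.0576 to 0.14). Ryk, the most abundant of the list, stood at 27.2 ± 0.737 FPKM with hemin and 33.0 ± 2.27 FPKM with vehicle (edgeR adjusted p = 0.121). Of 8 genes of receptor turnover and of R-spondin signalling, which protects receptors from Znrf3, 3 were tested, with a median log2 fold change of -0.38. Lgr5, an R-spondin receptor and a Wnt target, fell to 0.683 ± 0.182 FPKM in hemin libraries, against 1.70 ± 0.0702 FPKM in vehicle libraries (edgeR adjusted p = 0.00859). Lgr4 stood at 3.92 ± 0.915 FPKM with hemin and 3.83 ± 0.551 FPKM with vehicle (edgeR adjusted p = 0.789).

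Of 13 secreted inhibitors and their receptors, 5 were tested, 1 rose and 1 fell, with a median log2 fold change of -0.16. Sfrp4 rose 3.25-fold to 1.11, 2.05 and 1.00 FPKM in hemin libraries, against 0.53, 0.59 and 0.20 FPKM in vehicle libraries. Sfrp2 fell 1.76-fold to 4.06 ± 0.499 FPKM in hemin libraries, against 7.46 ± 1.75 FPKM in vehicle libraries, while Sfrp1, the most abundant, stood at 10.8 ± 1.80 FPKM with hemin and 13.1 ± 1.67 FPKM with vehicle (edgeR adjusted p = 0.276). The Sfrp4 call was lost without hemin replicate 2 or any vehicle replicate (edgeR adjusted p from 0.0609 to 0.117), and the Sfrp2 call without hemin replicate 2 or 3 or vehicle replicate 1 or 2 (0.0786 to 0.115). Of 6 tested Dishevelled genes and inhibitors with a median log2 fold change of -0.25, only Dact3, which binds Dishevelled, passed. It was 1.43-fold lower with hemin, and Dvl1 stood at 8.78 ± 0.656 FPKM with hemin and 8.87 ± 0.550 FPKM with vehicle. Of 13 tested genes of the destruction complex and of Axin turnover, with a median log2 fold change of 0.14, 2 fell. They were Amer1, a binding partner of APC, 1.44-fold lower with hemin, and Rnf146, a ubiquitin ligase for Axin, 1.24-fold lower. The casein kinase gene Csnk1a1 stood at 122 ± 4.01 FPKM with hemin and 111 ± 2.90 FPKM with vehicle (edgeR adjusted p = 0.117). The Amer1 call was lost without hemin replicate 2 or vehicle replicate 1 or 3 (edgeR adjusted p from 0.0775 to 0.0836). The calls of Dact3 and Rnf146 were lost without hemin replicate 2 or 3 or any vehicle replicate (0.0724 to 0.135 and 0.0952 to 0.175).

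Of 16 tested nuclear partners of β-catenin and TCF/LEF factors, 1 rose and 3 fell, with a median log2 fold change of -0.02. Crebbp, a histone acetyltransferase and coactivator, rose 1.93-fold to 5.86 ± 0.916 FPKM in hemin libraries, against 3.15 ± 0.402 FPKM in vehicle libraries (edgeR adjusted p = 0.0044). Ctnnbip1, which blocks the contact between β-catenin and TCF factors, had 12.7, 15.8 and 17.7 FPKM in hemin libraries, against 24.5, 23.0 and 25.2 FPKM in vehicle libraries, and fell 1.52-fold (edgeR adjusted p = 0.0106). Both calls were kept in every alternative tried. Pygo1, a coactivator, and Tbl1xr1, a corepressor exchange factor, fell 1.66-fold and 1.38-fold. The Pygo1 call was lost without hemin replicate 2 or 3 or any vehicle replicate (edgeR adjusted p from 0.068 to 0.113) and the Tbl1xr1 call without hemin replicate 2 or vehicle replicate 1 or 3 (0.0701 to 0.0892). Tle5, a short member of the Groucho family, had 94.2, 152 and 144 FPKM in hemin libraries and 133, 139 and 111 FPKM in vehicle libraries (edgeR adjusted p = 0.778).

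Of 9 tested genes known as Wnt targets in other tissues, 3 rose, 1 fell and 5 did not pass, with a median log2 fold change of 0.54. Fosl1, a subunit of the stress-responsive factor AP-1, had 84.9, 48.9 and 68.1 FPKM in hemin libraries, against 1.80, 1.65 and 2.66 FPKM in vehicle libraries, a 34.2-fold rise. Jun, another subunit of AP-1, rose 3.50-fold, and Cd44, a hyaluronan receptor, rose 1.99-fold. Id2, an inhibitor of bHLH factors, fell 2.41-fold. Ccnd1, the G1 cyclin most often cited as a target, stood at 209 ± 55.7 FPKM with hemin and 199 ± 18.7 FPKM with vehicle (edgeR adjusted p = 0.677). The edgeR adjusted p-values of the 4 called genes lay between 0.000191 and 0.0147, and the calls were kept in every alternative tried. Among 5 tested junction partners of β-catenin, whose median log2 fold change was -0.25, Cdh2, N-cadherin, fell 1.40-fold to 53.4 ± 2.55 FPKM in hemin libraries, against 77.1 ± 6.71 FPKM in vehicle libraries. Ctnnd1, p120-catenin, fell 1.27-fold and Ctnna1, α-catenin, rose 1.29-fold. The Ctnnd1 call was lost without hemin replicate 3 or any vehicle replicate (edgeR adjusted p from 0.0642 to 0.131) and the Ctnna1 call without vehicle replicate 1 or 2 (0.0521 and 0.0523).

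**Figure D4:**
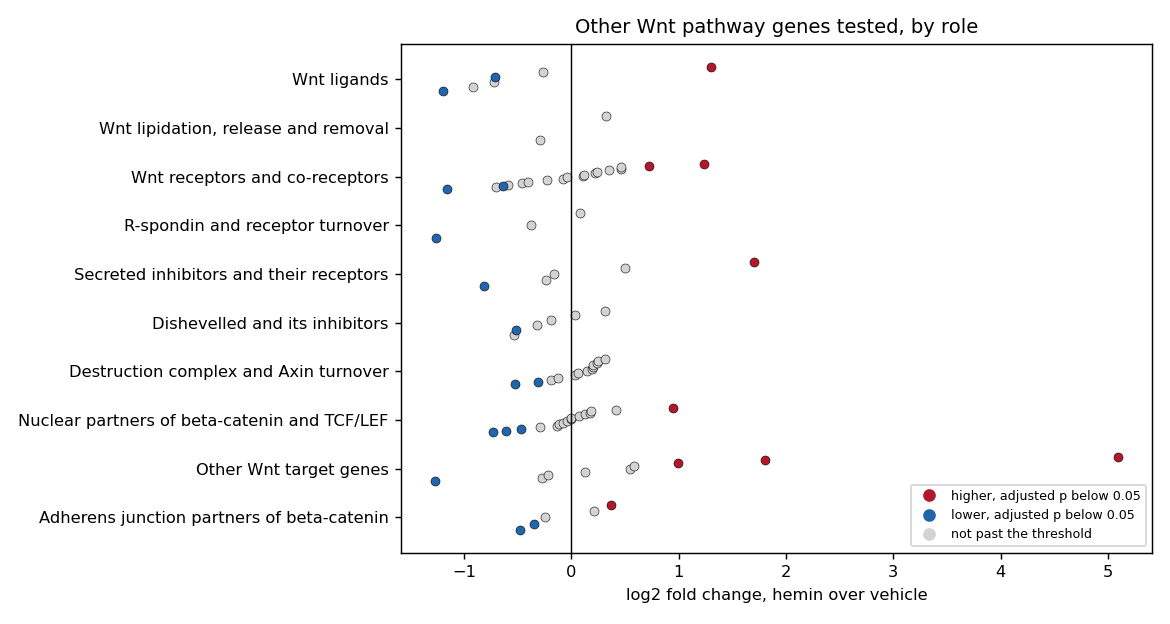
Log2 fold change of hemin over vehicle (x axis, edgeR) for the 83 tested pathway genes outside the 8, 1 point a gene, by role (rows). Red points are higher and blue points lower at an adjusted p below 0.05, and Fosl1 lies farthest right at 5.10.

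Markers of cell types moved beside these values, and in bulk RNA fewer cells of a type and less RNA per cell cannot be told apart. Of 6 OPC markers 5 fell, Pdgfra, Cspg4, Olig1, Olig2 and Sox10, and the list summed to 312 to 488 FPKM in hemin libraries and 1069 to 1275 FPKM in vehicle libraries. Of 5 tested markers of the newly formed oligodendrocyte, the stage where Tcf7l2 is known to be high, 3 fell, Gpr17, Cemip2 and Mycl, and the list summed to 26.5 to 34.5 FPKM with hemin and 47.2 to 79.9 FPKM with vehicle. Bcas1 and Itpr2 were the 2 that did not pass. Of 4 tested endothelial markers, from cells where Lef1, Axin2 and Apcdd1 are known as Wnt targets, Pecam1, Kdr and Tek rose, and the 8 markers summed to 5.02 to 6.03 FPKM with hemin and 1.23 to 1.77 FPKM with vehicle, without overlap between the groups. Pecam1, Kdr and Tek met the count filter only because of their hemin libraries, with at most 5, 11 and 2 expected counts in a vehicle library. The share of tested endothelial markers that rose was thus partly set by the filter. Flt1, which did not pass, averaged 1.49 FPKM with hemin and 1.05 FPKM with vehicle. Of the markers not tested, Cdh5 averaged 0.16 FPKM with hemin and 0.077 FPKM with vehicle, Cldn5 averaged 0.083 FPKM in both groups, Slco1a4 was at most 0.03 FPKM in any library and Ly6c1 was at 0 throughout. The 6 astrocyte markers, of which Gja1 rose and Aqp4 fell, summed to 372 to 505 FPKM with hemin and 437 to 521 FPKM with vehicle. Of 6 neuronal markers Tubb3 and Neurod6 fell, and the list summed to 58.6 to 90.5 FPKM with hemin and 103 to 133 FPKM with vehicle. Rbfox3, Syt1, Stmn2 and Snap25 did not pass, and Snap25 averaged 28.2 FPKM with hemin and 24.6 FPKM with vehicle. The 3 tested markers each of microglia, mural cells and fibroblasts did not pass. Their lists summed to 10.2 to 11.3, 5.82 to 11.6 and 1.86 to 10.5 FPKM with hemin and 4.70 to 8.13, 6.24 to 8.73 and 1.19 to 4.60 FPKM with vehicle. Of the 3 tested markers of myelinating oligodendrocytes Mbp fell, and the list summed to 4.95 to 8.69 FPKM with hemin and 7.84 to 15.6 FPKM with vehicle. The part of these shifts in the values of the 8 genes was not tested.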

How the data were processed

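RNA-seq was measured in 3 hemin and 3 vehicle libraries of cultured mouse OPCs, grouped by their titles. Per the submitters' processing notes, Bowtie 0.12.2 and RSEM were used, with the builds mm8 and mm9 named without a role. Annotation release, read filters and strandedness are not stated there or in the labels. Per the file headers, the deposited tables hold expected counts per transcript, estimates that need not be whole, and FPKM, which the authors scaled by length and library size. Only features above 0 are listed, and the tables of unannotated features were not used here.

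Counts and FPKM were summed to 18743 genes, of which 18711 matched a symbol in RefSeq's table for GRCm38.p6. Expected counts were rounded. In R 4.3.3, edgeR 4.0.16 filtered genes (filterByExpr by group), which left 12779, scaled libraries by TMM and compared the hemin with the vehicle group, with no covariate, two-sided. SE is the size of the log2 fold change divided by the square root of F, and 95% intervals use the t distribution with the fit's degrees of freedom. In simulated data for this comparison 200 of 12779 genes were changed. There edgeR found 43% of the genes changed 2-fold and 87% of those changed 4-fold, and 5.11% of its calls were false. DESeq2 found 64% and 91% of them, and 16.7% of its calls were false. In the real data 31.9% of the genes tested passed, so these rates need not hold there. Coding lengths and exons are from GENCODE vM21, joined by RefSeq accession, and lengths outside the coding part can differ from the authors'.

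Alternatives were DESeq2 1.42.0, limma 3.58.1 on log2(FPKM + 1) for genes with a mean of at least 0.5 FPKM, a pseudocount of 0.1, no filters, other scaling factors, the replicate number as a block, and leaving out each library. The 8 genes and the lists were chosen with earlier results of these data known. Genes named from a list are, per direction, up to 3 called genes with the smallest p, plus the most abundant one, with all called markers and the 3 genes nearest to Axin2 among those with a mean of at least 1 FPKM.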

Additional observations from a re-analysis of the deposited data

How the results depend on the processing

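Every alternative gave Znrf3, Apcdd1 and Tcf7l1 a negative and Tcf7l2 a positive log2 fold change. Of 14 alternatives, Znrf3 passed in 12, Apcdd1 in 8, Tcf7l1 in 7 and Tcf7l2 in 3. Axin2, Nkd1 and Ctnnb1 passed in none. Of the 8 genes 4 passed with all libraries, and 1 to 3 passed when a library was left out. Without vehicle replicate 3 none of those 4 passed. The only gene of the 8 to pass there was Lef1, which met the count filter in that fit through its hemin libraries alone. With a library left out, the genes called in all ranged from 2551 to 4530, against 4077 with every library. Without vehicle replicate 1 and vehicle replicate 2 these were 2597 and 2551. The labels state no pairing, so the replicate numbers were not taken as pairs. Same-numbered libraries deviated from their group means with correlations of 0.0631, 0.1 and 0.157. Every library correlated best with its own number, and whether the numbers mark pairs is not known. With the replicate number as a block 1 of the 8 genes passed, Znrf3 (edgeR adjusted p = 0.0426), and 3728 genes in all. Of the pathway genes named, Fzd2, Dact3, Rnf146 and Pygo1 lost their calls with the block (edgeR adjusted p from 0.054 to 0.0664). Tcf7l1 was also lost in DESeq2 (adjusted p = 0.0542), and Tcf7l2 without the count filter (edgeR adjusted p = 0.0593). The cause of these losses was not tested. Scaling by totals shifted the median log2 fold change of all genes to -0.09 and left the signs of the 4 called genes as they were. Low counts limit Lef1, at 2 to 16 per library. The transcript shares of Tcf7l2 varied widely within groups, and the cause was not tested.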
